A study of Mus musculus with 6 samples.

Results

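Iigp1, Ifit1, Herc6 and Samd9l are interferon-induced effector genes, that is, genes whose protein products act against infection once interferon has switched them on. They were taken by symbol from the authors' deposited table of 149 genes, where each symbol has 1 row, so the group holds 4 of 149 genes. Every row of that table had been selected on the difference between the study's groups, with an FDR of at most 0.05 and a log2 fold change of at least 1 in size. The difference between the groups therefore chose these genes and is described below without a test.

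The study compared mouse hearts after ischaemia and reperfusion with and without earlier exposure to trimethylamine N-oxide (TMAO), an oxidation product of a gut bacterial metabolite. All mice were wild type males of strain C57BL/6, and in all of them the coronary artery named left anterior descending was closed for 45 min, followed by 24 h of reflow. The IR group had this procedure alone, and the TMAO+IR group also drank 0.12% TMAO for 4 weeks beforehand and throughout. RNA came from heart muscle of the IR region, with 3 libraries in each group. There was no sham or TMAO-only group among the 6 libraries, no age is given, and the labels number the libraries without naming animals, so the spread between libraries may be technical.

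Interferons are secreted proteins that bind receptors on neighbouring cells and act through Janus kinases and the transcription factors that these switch on. The response to type I interferons works mainly through interferon-stimulated response elements in promoters, and that to interferon gamma also through gamma-activated sites. In the injured heart, interferon-induced genes are known from leukocytes that enter the infarct and sense nucleic acids of dying cells. Iigp1 encodes an immunity-related GTPase that attacks the vacuoles of intracellular parasites. Ifit1 encodes a protein that binds foreign RNA ends and blocks their translation. Herc6 encodes a ligase that in mice attaches the ubiquitin-like protein ISG15 to other proteins. Samd9l encodes an interferon-induced cytoplasmic protein that restricts viruses and cell growth.

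All 4 genes were higher in TMAO+IR than in IR, with no overlap between the groups, by 2.34-fold for Iigp1, 2.38-fold for Herc6, 2.03-fold for Ifit1 and 2.01-fold for Samd9l in counts scaled to equal depth; with TMM scaling within the list, a setting that moves the median of the list by -1.03 (log2), no member separated the groups and the values of Ifit1 (log2 -0.06) and Samd9l (log2 -0.03) changed sign. These counts must be read against how the list was made. The authors' rule kept 1.17% of about 12721 genes in either direction and 0.959% in the upward direction. That total was inferred from the ratio of FDR to p-value in the row with the smallest p-value. Within the list 81.9% of genes were higher in TMAO+IR, and 80.5% were higher with no overlap of scaled counts between groups. In bulk tissue, a change in how many cells of a type are present and a change in the RNA of each cell cannot be told apart.

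The promoter stretches of the members are shown because the known response elements of interferon signalling can be looked for in them. RefSeq promoter windows of 300 bases (250 before and 50 after the annotated start, GRCm38.p6) are described for 3 of the 4 members, Ifit1, Herc6 and Samd9l. None is described for Iigp1, so nothing is said here about the elements of its promoter. For each of the 3 described genes, the bases from 150 to 21 before the start are printed 5′ to 3′ on the strand of the gene, in lower case. Capitals mark matches to GAAANNGAAA, the core of an interferon-stimulated response element, or to its reverse complement where the match lies on the opposite strand. The stretches are chr19:34640739-34640868 on the plus strand for Ifit1, chr6:57580842-57580971 on the plus strand for Herc6 and chr6:3399592-3399721 on the minus strand for Samd9l.
Ifit1: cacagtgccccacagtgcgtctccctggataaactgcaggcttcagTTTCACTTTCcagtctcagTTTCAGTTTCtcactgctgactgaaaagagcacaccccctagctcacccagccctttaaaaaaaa
Herc6: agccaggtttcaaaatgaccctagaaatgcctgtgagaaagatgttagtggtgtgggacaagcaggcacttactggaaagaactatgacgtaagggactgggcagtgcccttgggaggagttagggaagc
Samd9l: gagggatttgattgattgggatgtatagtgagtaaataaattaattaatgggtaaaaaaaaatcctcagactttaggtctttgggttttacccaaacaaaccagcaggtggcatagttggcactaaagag

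The stretch of Ifit1 holds 2 matches to GAAANNGAAA on the strand opposite to the gene, at 104 to 95 and at 85 to 76 bases before the start. Both strands of every window were searched, and 3.44% of all 32851 RefSeq windows hold this motif at least once. Of the 139 windows of listed genes, 12 hold it (8.63%), a share that was not tested. Counted by gene, where a gene can have several windows, 10 of 109 listed genes hold it. Of the described members, Ifit1 is the only one among these 10. A spacing longer by 1 base, GAAANNNGAAA, occurs in 2.75% of all windows and was counted separately. Samd9l is the only listed gene with it, at bases 32 to 42 from the start on the strand of the gene, outside the stretch printed above. The gamma-activated motif TTCNNNGAA is found in 8.30% of all windows, and the windows of Ifit1, Herc6 and Samd9l do not contain these letters. A match is a description of the letters and does not show that a factor binds there.

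The levels of the 4 genes can be compared with each other only per transcript length, on the scale of FPKM as deposited by the authors, which divides fragments by transcript length and library depth. Iigp1 was the most abundant in IR at 7.43 ± 2.25 FPKM (SD, n = 3), followed by Ifit1 at 3.51 ± 0.0436. Samd9l (1.39 ± 0.440 FPKM) and Herc6 (0.873 ± 0.222 FPKM) were lowest in IR. In TMAO+IR the means were 17.8 ± 1.32 FPKM for Iigp1, 7.14 ± 1.72 for Ifit1, 2.79 ± 0.334 for Samd9l and 2.48 ± 0.718 for Herc6. The order Iigp1, Ifit1, Samd9l, Herc6 held in 5 of 6 libraries. In TMAO+IR replicate 2 Herc6 (3.23 FPKM) stood above Samd9l (2.70 FPKM). That exchange depends on the transcript length behind the Herc6 value, which differed between libraries as described further on. At the fixed length of its longest transcript, Herc6 would have 2.39 FPKM in that library, below Samd9l. Iigp1 and Ifit1 did not overlap in either group. The deposited ranges of Samd9l and Herc6 overlapped in both groups, so the order of these 2 neighbours lies within their spread. At fixed lengths they still overlapped in IR, while in TMAO+IR the highest Herc6 value (2.398 FPKM) was below the lowest of Samd9l (2.51 FPKM).

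Iigp1 (ENSMUSG00000054072) is a plus-strand gene of chromosome 18 (60376027 to 60392634, GRCm38), with a longest annotated transcript of 3121 bases in 3 exons. Its deposited read counts were 485, 565 and 318 in IR replicates 1 to 3 and 996, 999 and 985 in TMAO+IR replicates 1 to 3. Scaled to the mean library size, these became 492, 539 and 297 against 1137, 973 and 992. The TMAO+IR libraries stood close together, whereas IR replicate 3 was well below the other IR libraries. The coefficient of variation was 29.0% in IR and 8.68% in TMAO+IR, where counting error alone would give 4.68% and 3.17%. Even so the lowest TMAO+IR library was 1.81 times the highest IR library, the widest gap among the members. The means were 443 ± 128 and 1034 ± 89.8 scaled counts (SD, n = 3), a log2 fold change of 1.22 from edgeR with a derived SE of 0.39. The values that selected it in the authors' deposited table were an FDR of 1.83e-05, rank 9 of 149 by p-value, and a log2 fold change of 1.26.

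Ifit1 (ENSMUSG00000034459) is a plus-strand gene of chromosome 19 (34640871 to 34650009, GRCm38) and has a single annotated transcript of 2656 bases in 2 exons. Its read counts were 190, 207 and 210 in IR and 441, 385 and 313 in TMAO+IR. At the mean library size they were 193, 197 and 196 against 503, 375 and 315. The IR libraries were nearly identical and the TMAO+IR libraries spread widely, the reverse of Iigp1. In IR the coefficient of variation was 1.27%, below the 7.03% that counting error alone gives, and in TMAO+IR it was 24.2% against 5.13%. The lowest TMAO+IR library was 1.60 times the highest IR library. The means were 195 ± 2.48 and 398 ± 96.2 scaled counts, a log2 fold change of 1.02 with an SE of 0.36. That SE pools the spread over listed genes of like level and so carries little of the narrow IR spread of Ifit1 itself. The authors' deposited table, by which Ifit1 was selected, gives it an FDR of 0.00415.

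**Figure D1:**
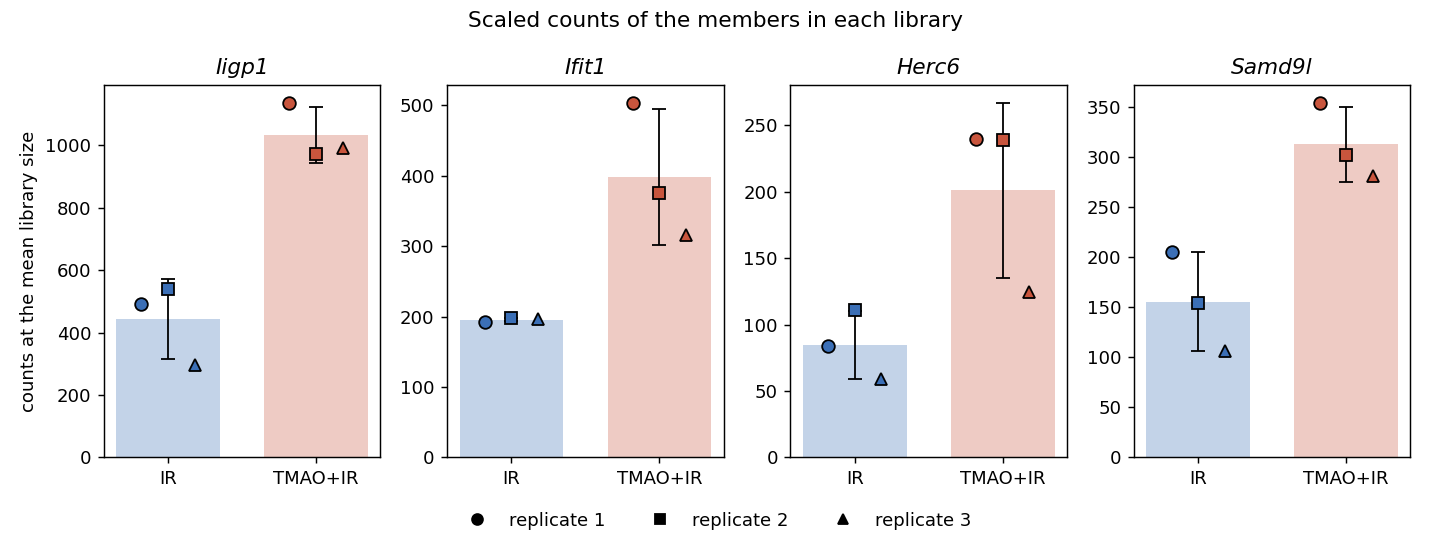
Read counts of Iigp1, Ifit1, Herc6 and Samd9l scaled to the mean library size (vertical axis, counts) in the IR and TMAO+IR groups; each symbol is a library, bars are group means and whiskers are ± 1 SD (n = 3). At this scaling the lowest TMAO+IR library is above the highest IR library for each gene, at 1.81 times for Iigp1 and 1.13 times for Herc6, whereas with TMM scaling within the list no gene separates the groups. The IR libraries of Ifit1 lie between 193 and 197.

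Samd9l (ENSMUSG00000047735) is a minus-strand gene of chromosome 6 (3372257 to 3399572, GRCm38), with a longest transcript of 5330 bases in 2 exons. Its read counts were 202, 162 and 114 in IR and 310, 310 and 279 in TMAO+IR. At the mean library size they were 205, 155 and 107 against 354, 302 and 281. The IR libraries were the more spread out, as for Iigp1, and replicate 3 was again the lowest. The coefficient of variation was 31.7% in IR and 12.03% in TMAO+IR, with counting errors of 7.92% and 5.78%. The lowest TMAO+IR library was 1.37 times the highest IR library. The means were 155 ± 49.2 and 312 ± 37.6 scaled counts, a log2 fold change of 1.008 with an SE of 0.35. For Samd9l the authors' deposited table holds an FDR of 0.00425.

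Herc6 (ENSMUSG00000029798) is a plus-strand gene of chromosome 6 (57581000 to 57664632, GRCm38), with a longest transcript of 4767 bases in 23 exons. Its read counts were the lowest of the members, 83, 116 and 63 in IR and 210, 245 and 124 in TMAO+IR. At the mean library size they were 84.2, 111 and 58.9 against 240, 239 and 125. TMAO+IR replicates 1 and 2 were nearly equal, and replicate 3 lay just above the highest IR library. That gap of 1.13 times is within counting error. The 95% Poisson interval was 95.9 to 139 for the 116 reads of IR replicate 2 and 103 to 148 for the 124 reads of TMAO+IR replicate 3, intervals that cover counting error only. The means were 84.6 ± 25.9 and 201 ± 66.0 scaled counts, a log2 fold change of 1.25 with an SE of 0.33. Both groups varied to a like degree, with coefficients of variation of 30.6% and 32.8% against counting errors of 10.7% and 7.20%. Among the members, Herc6 has the largest FDR (0.00982) of the authors' deposited table.

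Herc6 was the member for which the deposited counts and the deposited FPKM gave different sizes of change. In FPKM its values were 0.84, 1.11 and 0.67 in IR against 2.40, 3.23 and 1.80 in TMAO+IR. The log2 ratio of the FPKM means in the authors' deposited table was 1.504, or 2.84-fold, against 2.38-fold in scaled counts. A count, an FPKM value and a library size together imply the transcript length by which the count was divided. For Herc6 this implied length was 4778, 4753 and 4190 bases in IR and 4763, 3522 and 3308 bases in TMAO+IR. It was thus close to the 4767 bases of the longest transcript in 3 libraries and shorter in the others. The largest implied length was 1.44 times the smallest, a ratio exceeded by 8 of the 86 listed genes whose FPKM was never below 1, with a median ratio of 1.06.

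Annotation lists 6 transcripts of Herc6, of which 1 is labelled protein-coding. Herc6-202, a single-exon transcript of 4378 bases, and 3 shorter ones of 513 to 1084 bases are labelled retained intron, and 1 of 449 bases is labelled nonsense-mediated decay. The non-coding gene Gm45193 overlaps Herc6 on the same strand and the pseudogene Gm19244 overlaps it on the opposite strand. The sources used here do not describe how the authors' counting treats such overlaps, so reads could be shared between these genes. Whether the use of transcripts differed between libraries was not tested.

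The implied lengths of the other members varied less. For Ifit1 the largest and smallest differed by a factor of 1.003, around its 2656 annotated bases. Ifit1 is among the 12 single-transcript genes that set the absolute library sizes, so this match is partly built in. Ifit1 and Iigp1 are also among the 86 genes that set the relative sizes. For Samd9l the factor was also 1.003, around its 5330 bases. For Iigp1, which has 5 annotated transcripts, the implied length ranged from 2710 to 2922 bases, a factor of 1.08 that 41 of the 86 genes exceeded. Iigp1 accordingly had almost the same change in both units, 2.39-fold in FPKM and 2.34-fold in scaled counts.

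**Figure D2:**
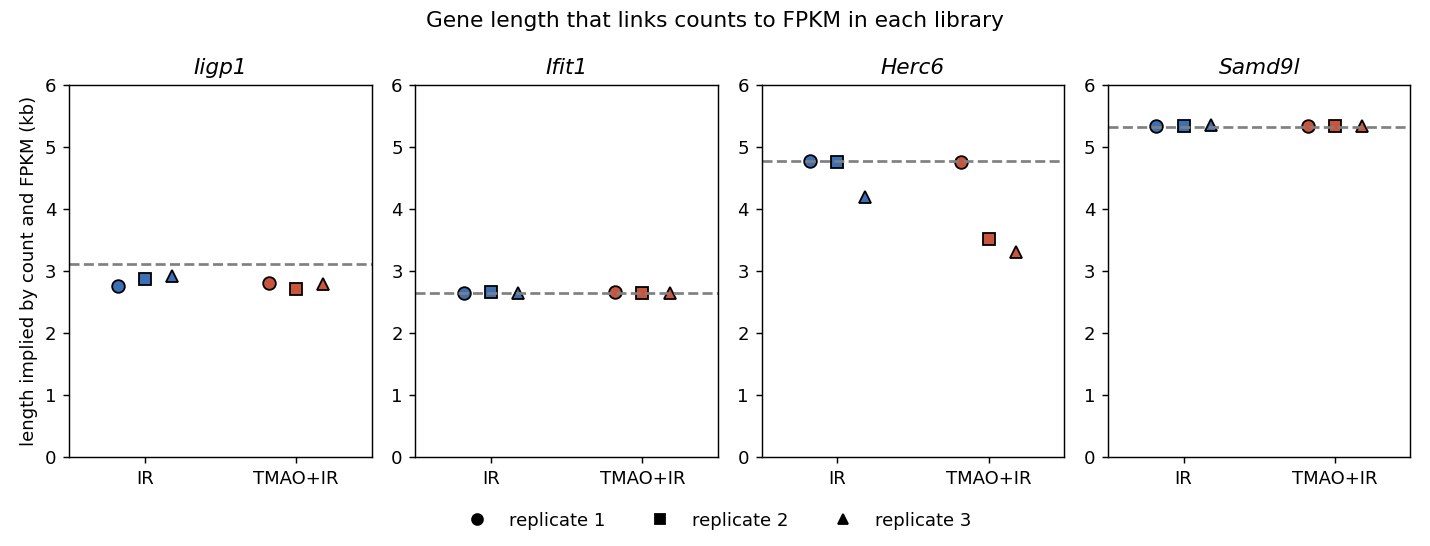
Transcript length implied by the deposited count and FPKM of each member (vertical axis, kilobases) in the 3 IR and 3 TMAO+IR libraries; each symbol is a library and the dashed line is the longest annotated transcript. Ifit1 and Samd9l stay on their line in all 6 libraries, while Herc6 is at its line in 3 libraries and at 3308 bases in TMAO+IR replicate 3. Ifit1 is among the genes that set the library sizes, so its place on the line is partly built in.

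Within the upward part of the list, the changes of Herc6 and Iigp1 lay above the median and those of Ifit1 and Samd9l near the smallest. The median log2 fold change of the 122 higher genes was 1.22 in the authors' deposited table, and the smallest was 1.001. Of these 122 genes, 27 had a larger change than Herc6 and 53 a larger change than Iigp1 in the authors' deposited table. That place of Herc6 rests on FPKM. In counts its log2 fold change was 1.25, against 1.22 for Iigp1. Ifit1 (log2 1.02), exceeded by 115 of the 122, and Samd9l (log2 1.009), exceeded by 119, stood just inside the limit of the authors' deposited table. Genes just outside that limit were not analysed here.

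The members did not share 1 pattern among the libraries of a group. On the log2 scale, IR replicate 3 was below the mean of its group by 0.53 for Iigp1, 0.47 for Herc6 and 0.49 for Samd9l, but was at 0.01 for Ifit1. TMAO+IR replicate 1 was above its group mean for all 4 genes, from 0.14 for Iigp1 to 0.37 for Ifit1. It was also the smallest library, with 18370997 recovered fragments against 20681799 to 22442237 in the others, and in unscaled reads it was not the highest for Iigp1 or Herc6. TMAO+IR replicate 3 was the lowest of its group for Ifit1 (-0.31), Herc6 (-0.62) and Samd9l (-0.15). For Iigp1 the lowest of that group was replicate 2 (-0.08).

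Over the 6 libraries, which all members share, these deviations had a Pearson r of 0.84 between Iigp1 and Samd9l, the highest of the 6 pairs. Iigp1 and Ifit1 had the lowest, 0.22. The other pairs were Iigp1 and Herc6 with 0.67, Ifit1 and Herc6 with 0.61, Herc6 and Samd9l with 0.57, and Ifit1 and Samd9l with 0.31. These are descriptions over few libraries of genes with a common source of RNA and depth, and carry no test.

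**Figure D3:**
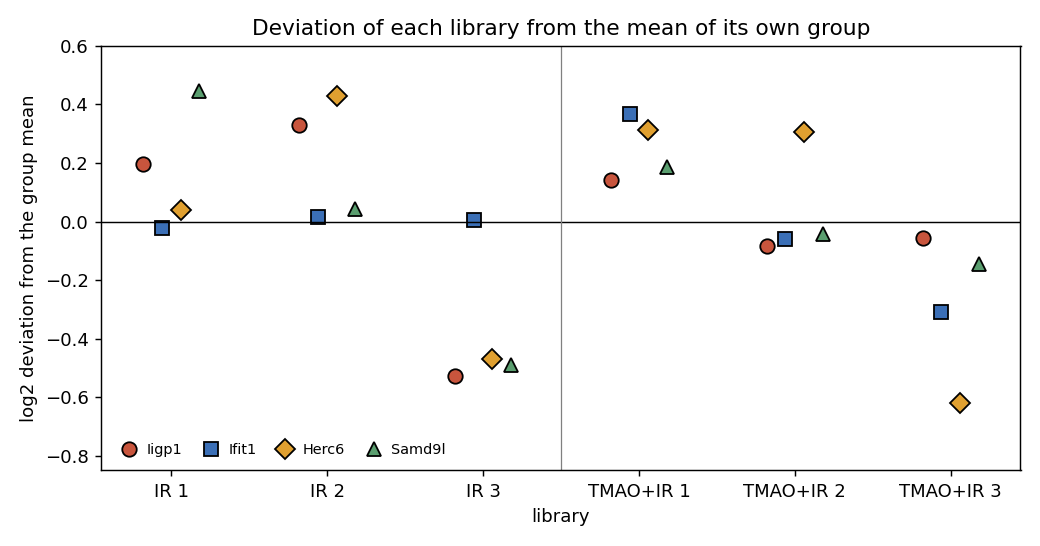
Deviation of each library from the mean of its own group, in log2 of scaled counts (vertical axis), for the 3 IR and 3 TMAO+IR libraries (horizontal axis) and the 4 members (symbols). In IR replicate 3, Iigp1, Herc6 and Samd9l lie between -0.53 and -0.47 while Ifit1 lies at 0.01, and all 4 symbols of TMAO+IR replicate 1 lie above 0.

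Of the 116 other listed genes with a mean count of at least 50, the ones whose deviations most resembled a member differed between members. For Iigp1 they were Scai (r = 0.99), Cd274 (0.97) and Map1b (0.97), where Cd274 encodes the immune checkpoint ligand PD-L1. For Samd9l they were Trim30d (0.95), Map1b (0.94) and Slfn4 (0.93), of which Trim30d and Slfn4 belong to interferon-induced families. For Ifit1 they were Lilr4b (0.96), Slfn8 (0.84) and Fdxr (0.81), the last a gene with a lower level in TMAO+IR (log2 -1.004 in the authors' deposited table). The deviations of Herc6 were nearly those of Ppbp (r = 0.997), Klf6 (0.996) and Inhba (0.996). These are a platelet chemokine gene, a transcription factor gene and the gene of an activin subunit. With 6 libraries and 116 candidates, high values of r are easily reached, so the names are given as a description.

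Of 178 annotated genes in 7 lists of the wider interferon pathway, 16 had a row (8.99%), beside 1.17% of the inferred number of genes that the authors tested. The lists were chosen with earlier results known and count annotated rather than tested genes, so nothing is read from these shares. The 16 genes were all higher in TMAO+IR with no overlap between groups, although with TMM scaling within the list Ifi204 (log2 -0.03) changed sign. Of all listed genes, 81.9% were higher and 80.5% were higher with no overlap. The log2 fold changes of the 16 in the authors' deposited table ran from 1.007 to 2.32 with a median of 1.16, against 1.22 over the 122 higher genes. A gene without a row missed a limit of the authors' rule, was not tested by them or was not given here, and its level is not known from this table.

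None of the 10 interferon genes and none of the 6 receptor genes had a row. Of 20 signalling and transcription factor genes the single one listed was Jak2, which encodes a kinase of the interferon gamma receptor (log2 1.09, SE 0.41). Of 23 nucleic acid sensors and adaptors, 5 had a row. Aim2, a sensor of cytosolic DNA, had the largest change of all 16 in the authors' deposited table (log2 2.32), but rests on 6.80 ± 4.80 scaled counts in IR and 25.4 ± 4.93 in TMAO+IR. In scaled counts Aim2 had a log2 fold change of 1.88, below Ifi213 with 1.92. Ifi213 also rests on few scaled counts, 7.75 ± 1.79 in IR and 29.6 ± 5.03 in TMAO+IR. The others, in scaled counts, were Ifi203 (log2 1.12), Tlr9 (1.10) and Ifi204 (1.06).

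Of 81 further antiviral genes, 7 had a row, all from the Slfn and Trim30 families. Slfn4 was the highest of them, with a log2 fold change of 1.48 (SE 0.34), and Slfn1 the lowest with 1.07. Of 22 further interferon-induced GTPases, the family class of Iigp1, the single one listed was Gvin1, which encodes a very large GTPase. Gvin1 had 4.18 ± 2.04 FPKM in IR and 10.2 ± 2.76 in TMAO+IR. Of 17 genes in the antigen presentation list there were 2, Nlrc5 (log2 1.40) and Cd274 (1.23). Nlrc5 encodes the activator of class I genes, whereas Cd274, which the list also holds, encodes a checkpoint ligand. The Slfn, Trim30, Ifi200 and Ifit families and the GTPases have near-identical copies, so the counts of Iigp1, Ifit1 and these relatives could be split between copies.

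**Figure D4:**
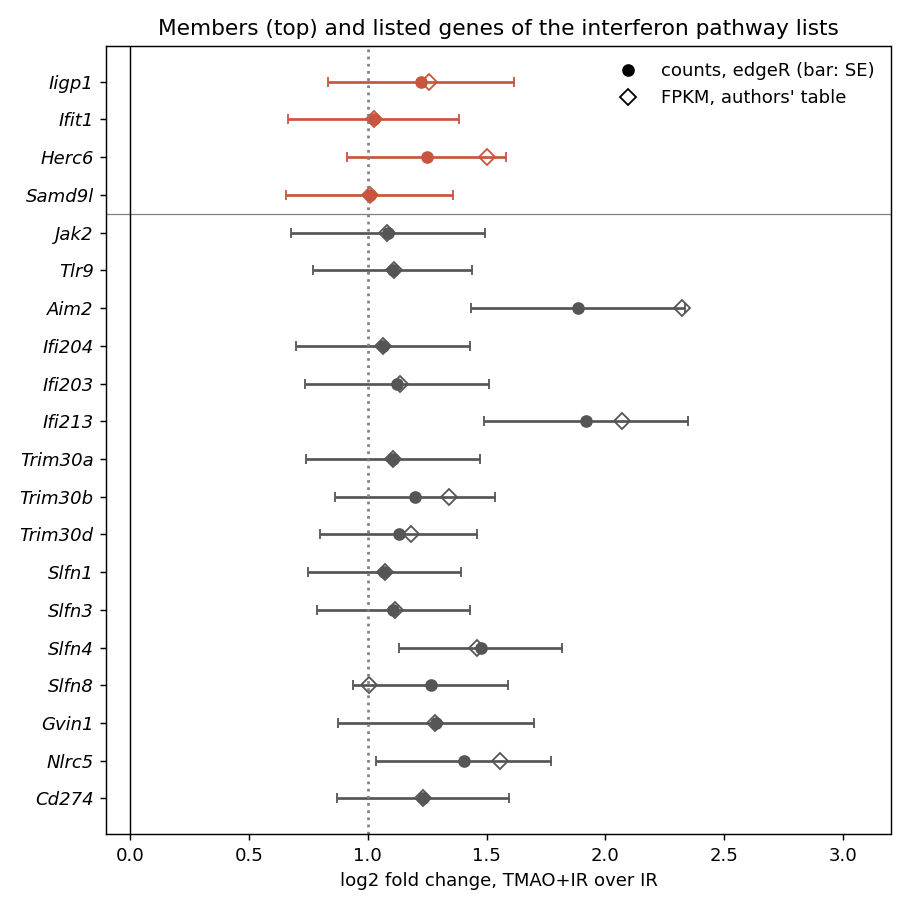
Log2 fold change of TMAO+IR over IR (horizontal axis) for the 4 members and the 16 listed genes of the interferon pathway lists; filled circles are counts fitted with edgeR with bars of ± 1 SE, open diamonds are FPKM ratios in the authors' deposited table, and the dotted line is the limit of 1 in that table. All genes drawn lie above 0 with these library sizes, whereas with TMM scaling within the list Ifit1, Samd9l and Ifi204 fall below it, and for Herc6 the diamond (1.504) lies to the right of the circle (1.25).

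The neighbours of the members on the chromosome were mostly without a row. Ifit1 has 9 protein-coding genes within 200 kb, among them its relatives Ifit2, Ifit3, Ifit3b, Ifit1bl1 and Ifit1bl2, none of which has a row. Ch25h, the gene of an interferon-induced cholesterol hydroxylase, was the only neighbour of Ifit1 with a row, and is named here after its values were seen. It went from 31.2 ± 6.30 to 64.1 ± 19.7 FPKM (log2 1.04, SE 0.41; log2 -0.06 with TMM scaling within the list). Of the 7 neighbours of Iigp1, which include the related GTPase genes Gm4951 and Gm4841, and of the 8 of Herc6 and 2 of Samd9l, none has a row.

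The 5 leukocyte and endothelial marker genes with a row were also higher in TMAO+IR, although with TMM scaling within the list Cybb (log2 -0.33) changed sign; of all listed genes 81.9% were higher. In the monocyte and macrophage list 3 of 19 genes had a row, Ccr2, Chil3 and Cybb, and their summed scaled counts ranged from 198 to 281 in IR and from 401 to 562 in TMAO+IR. Cybb made up most of these sums, with means of 185 ± 38.2 in IR and 303 ± 20.3 in TMAO+IR. Its log2 fold change was 0.71 in scaled counts, against 1.07 in the authors' deposited table. Ccr2 and Chil3 rest on few scaled counts, 23.1 ± 9.82 and 35.5 ± 8.55 in IR. The neutrophil list had 1 of 14, Mmp8, with 179 to 343 in IR and 452 to 593 in TMAO+IR. The endothelial list had 1 of 12, Ackr1, a venular chemokine receptor gene, with 19.1 to 21.3 against 44.3 to 62.3. The lymphocyte, fibroblast, smooth muscle and cardiomyocyte lists had none. The labelled heart tissue could therefore not be checked against the 12 cardiomyocyte genes of that list. Myh7 was not among them, and cardiomyocyte genes outside the list were not examined here. The listed genes as a whole held 0.330 to 0.505% of the recovered fragments in IR and 0.678 to 1.08% in TMAO+IR. A larger share in TMAO+IR was largely built in, since the genes were selected on this difference and 81.9% were higher. The part of cell content in the higher levels of Iigp1, Ifit1, Herc6 and Samd9l was not tested.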

How the data were processed

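Per the labels' protocols, mRNA was enriched with oligo(dT) beads and made into cDNA with random primers. Per the submitters' processing notes, the GRCm38 build was used with StringTie 1.3.1, HISAT2, Bowtie2 2.2.8, fastp 0.18.0, edgeR and DESeq2, whose roles and order are not stated. Per the file headers, the authors deposited read counts per gene and library, FPKM values, group means, a log2 fold change, a p-value and an FDR. The columns named T-IR were taken as TMAO+IR, and 0 columns of sample values were left unmatched. Since the table holds selected genes, library sizes were derived by dividing counts by FPKM in the 86 genes whose FPKM was never below 1, with absolute sizes from 12 single-transcript genes. Counts were fitted over all 149 genes with edgeR 4.0.16 (quasi-likelihood, R 4.3.3), with no filter and no p-value reported, because the table was selected on this contrast. The fit was tested on simulated data for its log2 fold changes only. Those data were not selected for change as this list was, and the SE was not tested. DESeq2 1.42.0 and limma 3.58.1 were alternatives. Replicate libraries differed beyond sampling noise (chi-square per degree of freedom from 36.6 to 204). All 149 identifiers matched GENCODE M21. The named genes are the members, every pathway or marker list gene with a row, and the 3 genes most like each member by Pearson r of deviations from group means of log2(scaled count + 1). The members and lists were chosen with earlier results of these data known.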

Additional observations from a re-analysis of the deposited data

How the results depend on the processing

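With TMM scaling within the list, the log2 fold changes were 0.22 for Iigp1, -0.0595 for Ifit1, 0.19 for Herc6 and -0.0283 for Samd9l, and 0 members separated the groups. This setting centres a list that was selected for its change. Each of the other 12 alternatives per gene (equal library sizes, DESeq2, limma on log2(FPKM + 0.1) or log2(FPKM + 1), at least 50 counts, the replicate block, 1 library left out) kept the direction and moved the value by less than 1 SD between replicates. Apart from equal library sizes, these alternatives kept the recovered sizes or the deposited FPKM that gave them, so they do not test the scaling. Leaving out 1 library gave 1.004 to 1.39 for Iigp1, 0.82 to 1.17 for Ifit1, 1.04 to 1.499 for Herc6 and 0.80 to 1.26 for Samd9l. The 4 members stayed separated each time, which was fixed in advance, since dropping a library cannot make separated groups overlap. With the replicate number as a block, the values were 1.26 for Iigp1, 0.998 for Ifit1, 1.23 for Herc6 and 1.05 for Samd9l. The labels name no pairs, and deviations correlated at -0.32, 0.33 and -0.08 between libraries of the same number (117 genes), with 1 of 3 IR and 1 of 3 TMAO+IR libraries closest to its own number. Counts limit Herc6 most, and absolute library sizes rest on 12 genes.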
